A study of Mus musculus with 288 samples.

Results

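Solute carriers are membrane proteins that move amino acids, sugars, nucleosides, metals, vitamins and ions across membranes, and mouse gene names group them into numbered Slc families. Those of the plasma membrane set what a cell takes up from its medium, some by exchange and some driven by the sodium gradient, while others load the Golgi, the endoplasmic reticulum, lysosomes and vesicles. Several surface carriers work as pairs, such as the heavy chain Slc3a2 with the light chains Slc7a5, Slc7a6 and Slc7a7, which together carry large neutral and cationic amino acids.

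The genes described here were selected by name and by measured level: rows starting with Slc and a number, without the mitochondrial Slc25 family, Slc2a1, Slc2a3 and Slc16a3, with a mean of 10 CPM (counts-per-million, a gene's reads scaled by the total of each cell) or more in at least one label. This left 132 members of 328 such rows. The table held 54232 rows in all, and 9924 of them reached the same limit. Of the members, 69 were at the limit under 3 labels, 27 under 2 and 36 under 1. Among the 36, 25 were at the limit only in D0, 4 only in D1 and 7 only in D2. The other 196 rows were below it, and 51 of them had no read in any cell used. Just inside the limit were Slc28a3 with 10.0 CPM and Slc5a11 with 10.3 CPM in their highest label, and just outside were Slc22a13b-ps with 9.82 CPM and Slc51a with 9.70 CPM.

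By their known substrates, assigned gene by gene, the members fell into 21 amino acid, 9 sugar, 6 nucleoside, 22 metal, 11 nucleotide sugar, 21 ion and pH, 1 monocarboxylate, 18 vitamin, cofactor and lipid, and 19 other carriers. The remaining 4 members, Slc4a1ap, Slc7a6os, Slc9a3r1 and Slc9a3r2, carry the prefix but are neighbours or adaptor proteins and not transporters. Location in the cell was not measured. Many members are known from intracellular membranes, among them the Slc35 and Slc37 families, Slc30a5, Slc30a6, Slc30a7, Slc39a7, Slc29a3, Slc38a9, Slc15a4 and Slc17a5, so the set is better called Slc genes outside Slc25 than plasma membrane carriers.

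Polyadenylated RNA was sequenced from single embryonic stem cells of the mouse line E14 (strain 129/Ola), which were sorted into 96 wells per label. D0 cells (0 h) were grown with LIF in serum-free N2B27 medium with the MEK inhibitor PD0325901 and the GSK3 inhibitor CHIR99021 (2i). D1 and D2 cells had spent 24 h and 48 h in serum medium with LIF and without the inhibitors. Every cell was exposed to a GpC methyltransferase before lysis, and LIF was present under all labels. Each label was 1 culture, so time, culture and plate cannot be told apart, no difference below was tested, and higher and lower describe these cells only.

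After filtering, 90 D0, 50 D1 and 93 D2 cells remained, and 46 of the 55 wells that failed were D1 wells. Median depth was 1.61e+06, 7.96e+06 and 2.16e+06 reads, over a range from 202157 to 43336922 reads per cell. The D1 cells stood apart in Hprt, the purine salvage enzyme, with a mean of 207 CPM and a read in 48 of 50 cells, against 3.08 CPM in D0 and 2.68 CPM in D2. Reads of 4 Y-linked genes summed to 22.9, 269 and 5.21 CPM. The study credits its E14 line to work on Hprt-deficient embryos, and widely used E14 sublines lack a working Hprt. All labels share the line name, and whether the D1 cells are of the same subline was not tested. Release and a difference in line cannot be told apart in any ratio with D1, and ratios of D2 over D0 hold no D1 cell. The 6 pluripotency markers had a read in 98.9%, 96.7% and 85.7% of gene and cell pairs, while 5 lists of other lineages had at most 20.7%.

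The D2 cells also stood apart in how few genes were read in each. With every cell thinned to 200000 reads, the median cell had 7812 genes (D0), 8037 (D1) or 3969 (D2) with a read, and a median of 74, 71 and 23 of the 132 members. The median member was read in 57.2% of thinned D0 cells, 50% of D1 cells and 11.8% of D2 cells. Over all 9924 rows these medians were 75.6%, 74% and 25.8%. More than 50% of a member's summed CPM came from 1 cell for 3 members in D0, 8 in D1 and 35 in D2 (26.5%, against 14.8% of all rows in D2). For these 35 members the D2 mean rested mainly on 1 cell.

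**Figure D1:**
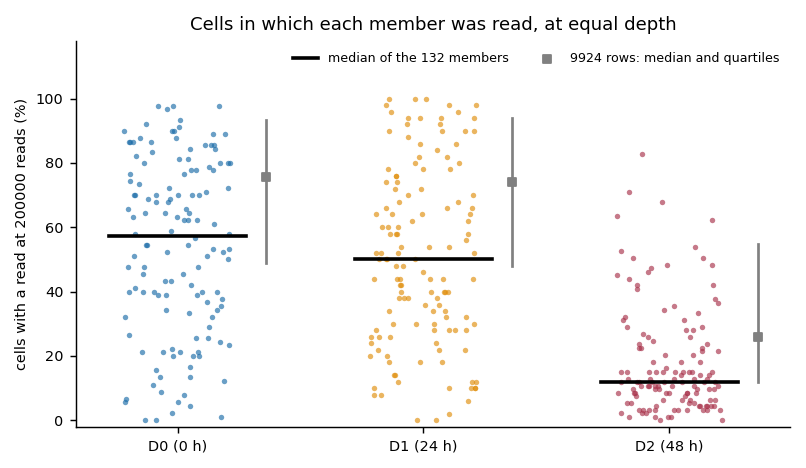
Each point is 1 of the 132 members, placed at the percentage of cells of a label with at least 1 of its reads after every cell was thinned to 200000 reads. Black lines mark the member medians of 57.2%, 50% and 11.8%, and grey squares with bars give the median and quartiles of all 9924 rows.

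Ratios are log2 of mean CPM plus 1 in one label over the other, and a member is counted as higher or lower at 2-fold or more. In D1 over D0, 20 members were higher and 60 were lower, or 15.2% and 45.5% of members, where 13.1% and 29.3% of all rows were higher and lower. The median ratio was -0.79 for members and -0.36 for all rows. With reads summed over cells in place of mean CPM, 24 members were higher and 54 lower (18.2% and 40.9%). Of all rows 13.5% and 27.2% were, with a median of -0.26. Factors on these sums that centre the bulk of genes (trimmed mean of M values, TMM) moved the median of all rows to -0.06. Then 24 members were higher and 44 lower (18.2% and 33.3%), where 17.5% and 22.4% of all rows were. The higher ones then made up 35.3% of the members counted, against 30.8% with summed reads alone and 25% with mean CPM. All rows moved the same way.

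In D2 over D0, 24 members were higher and 44 lower, or 18.2% and 33.3%, beside 15.1% and 28.1% of all rows. Their median was -0.37, against -0.18 over all rows. In D2 over D1, 36 were higher and 17 lower, where 21% and 18.7% of all rows were, with medians of 0.25 and 0.09. Of these 53, 25 turned direction under at least 1 alternative, as given in the last section. The members' shares in D2 over D0 were thus near those of all rows, and the widest gap to them was the 45.5% lower in D1. The 25 members that reached the CPM limit only in D0 were bound to have lower means in D1 and D2. All rows were chosen by the same limit. D1 and D2 were both set against the same D0 cells.

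The share of cells with a read at equal depth did not always lie on the side of the mean. All 20 members that were higher in D1 than in D0 also had a read in a larger share of D1 cells, and 57 of the 60 lower members (95%) had one in a smaller share. Over all rows these were 88.8% and 93.6%, so the lower members did not stand out by this. Of the 24 members higher in D2, 11 had a read in a larger share of D2 cells and 13 in a smaller share. Over all rows higher in D2, 28.6% had a larger share. For 7 of the 24, Slc10a3, Slc16a5, Slc18a1, Slc23a1, Slc29a4, Slc38a3 and Slc5a4b, or 29.2%, the larger part of the D2 sum came from 1 cell, against 17% of all rows higher in D2.

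**Figure D2:**
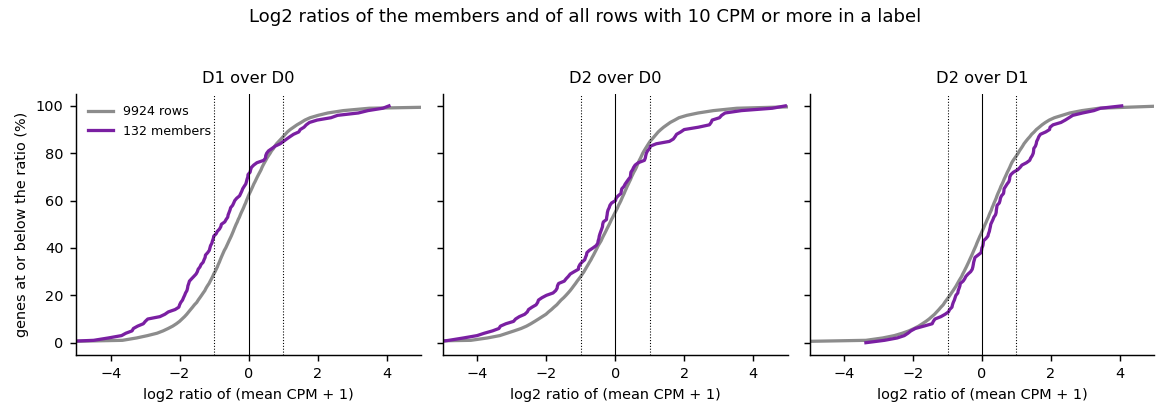
Cumulative share of genes (y, percent) at or below a log2 ratio of mean CPM plus 1 (x), for the 132 members in purple and all 9924 rows in grey, with dotted lines at 2-fold. In D1 over D0 the members lie to the left of all rows below 0, with medians of -0.79 and -0.36.

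Summed over the members, a cell held 5877 ± 1250 CPM in D0, 4276 ± 1628 in D1 and 6024 ± 2590 in D2 (mean ± SD between cells, n = 90, 50 and 93, as for every value below). The groups differed in where that sum went. The metal group summed to 1188 ± 401, 478 ± 208 and 822 ± 715 CPM, and the amino acid group to 1283 ± 514, 1573 ± 711 and 2247 ± 1654 CPM. Nucleotide sugar carriers summed to 417, 473 and 719 CPM, and ion and pH carriers to 827, 576 and 494 CPM.

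**Figure D3:**
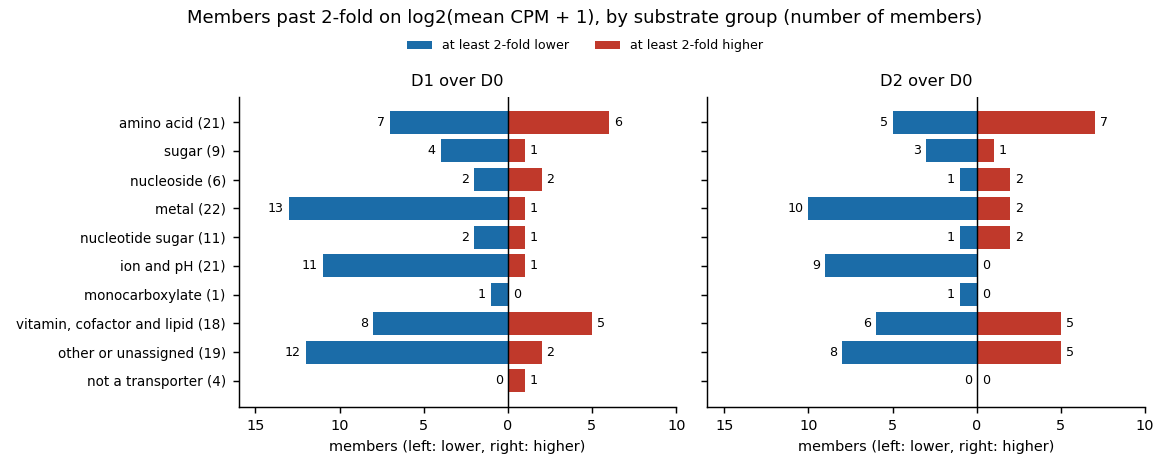
Bars count the members at least 2-fold lower (left, blue) and higher (right, red) for D1 and for D2, each set over D0, by substrate group, with the group size in parentheses. The metal group had 13 lower and 1 higher in D1, and the ion and pH group had 9 lower and 0 higher in D2.

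Metal carriers were more often lower than higher in D1 and D2, as were all rows. In D1 over D0, 13 of 22 were lower (59.1%, against 29.3% of all rows) and 1 was higher (4.55%, against 13.1%), with a median ratio of -1.44. In D2 over D0, 10 were lower (45.5%, against 28.1%) and 2 higher (9.09%, against 15.1%), with a median of -0.71. The members include the Slc30 family, which moves zinc out of the cytosol, the Slc39 family, which moves it in, the copper importers Slc31a1 and Slc31a2, the iron and manganese carriers Slc11a1 and Slc11a2, and the magnesium carriers Slc41a1 and Slc41a3.

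Slc30a2, which loads zinc into vesicles, was the metal member with the lowest ratio in D1. It had 142 ± 112 CPM in D0, with a lowest cell of 0, a median of 115 and a highest of 543. In D1 the values were 1.00 ± 3.76 CPM, and 45 of 50 cells had no read, with a highest cell of 22.7. D2 cells had 18.2 ± 68.4 CPM, with a median of 0 and a highest cell of 424. The log2 ratio to D0 was -6.15 in D1 and -2.89 in D2, and leaving out any 1 cell kept it between -6.52 and -6.11 in D1 and between -3.27 and -2.85 in D2. At equal depth a read was found in 91.1%, 10.0% and 15.1% of cells, so nearly all D0 cells had one and few cells of the other labels did.

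Slc30a1, which exports zinc across the plasma membrane, had 17.5 ± 37.1 CPM in D0, 5.45 ± 11.4 in D1 and 0.358 ± 1.94 in D2. Its medians were 0.425, 0 and 0 CPM and its highest cells 208, 46.4 and 16.3, so most cells of every label had little or none. Its ratio to D0 was -1.52 in D1 and -3.77 in D2, the lowest of the metal group in D2. The 5 D2 cells with a read all lay below the mean of D0.

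Both genes hold letters of the metal response element, the site of the zinc-sensing factor Mtf1, near a start in RefSeq. The motif was searched as TGCGCNC and TGCACNC on both strands in the 300 bases around each start, and 96 members had such a sequence (GRCm38.p6). TGCGCNC was found for 28.1% of these members and 17% of all genes, and TGCACNC for 19.8% and 14.2%. Of 17 metal members with a sequence, 5 held the first and 5 the second. The upstream bases of Slc30a1 are shown because its level was lowest in D2, followed by 30-base windows of the other metal members with a match nearest the start. All are given on the strand of the gene, with the matched letters in capitals.
Slc30a1, chr1:191906531-191906766, + strand: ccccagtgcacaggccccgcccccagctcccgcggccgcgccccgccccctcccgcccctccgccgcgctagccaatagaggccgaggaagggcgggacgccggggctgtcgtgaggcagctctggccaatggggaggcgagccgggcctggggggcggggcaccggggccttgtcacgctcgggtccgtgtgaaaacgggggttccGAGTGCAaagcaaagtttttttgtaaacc
Slc30a2, chr4:134343255-134343284, + strand: cgcaacttcgaGGGCGCAccgagagaggcg
Slc30a5, chr13:100833457-100833486, - strand: cgtgtccaccaGCGCGCAggcgcaggattg
Slc39a11, chr11:113650089-113650118, - strand: aaagggaaggaGAGCGCAgcgaacccacgg
Slc41a1, chr1:131827770-131827799, + strand: tgggaactcagGAGCGCAgcacccgcccgc
Slc31a2, chr4:62286180-62286209, + strand: ccttttaatttTGCACTCaacatgtgttaa
Slc39a3, chr10:81037441-81037470, - strand: catttggtagcTGCACTCatgtttagaaag
Slc41a3, chr6:90619025-90619054, + strand: gcccatggcacGTGTGCAgaggacacagag

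The Slc30a1 stretch ends at the first base before the annotated transcript (GENCODE M21), inside an intron of the antisense gene 1700034H15Rik. A match in these letters is a description and not a bound site. The metallothionein Mt1, which binds zinc and copper, had 979 ± 909, 1647 ± 2226 and 416 ± 585 CPM, and Mt2 had 218 ± 206, 379 ± 717 and 96 ± 111 CPM. Their D1 ratios to D0 were under 2-fold (0.75 and 0.80), and the median of Mt2 was 170.4 CPM in D0 and 155 in D1. In D2 over D0 both were lower, with ratios of -1.23 and -1.17. The study describes a separate cluster of D2 cells with Mt1 among its markers, which it proposes may be stressed. The D2 values here pool all D2 cells that passed. Mtf1 had 42.9, 22.5 and 55.6 CPM, and without 1 D2 cell its D2 ratio went from 0.37 to -0.28.

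Zinc importers of the Slc39 family did not move as a block. Slc39a1 had 128 ± 76.9 CPM in D0, where 97.8% of thinned cells had a read, 47.6 ± 35.8 in D1 and 26.2 ± 97.3 in D2. Its ratios were -1.41 and -2.25. Slc39a11 had 67 ± 76.2, 4.33 ± 8.13 and 15.6 ± 75.1 CPM, with ratios of -3.67 and -2.03, and only 4 D2 cells had a read. Slc39a14, which also carries iron and manganese, was the opposite case, with 1.67 ± 8.88 CPM in D0 and 40.9 ± 45.4 in D1. Its D0 median was 0 and its D1 median 29.4, and a read was found in 5.56% and 86% of thinned cells. D2 cells had 17.3 ± 65.1 CPM and a read in 14%, so the D2 ratio of 2.78 rested on 17 cells.

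Slc39a10 and Slc39a6, which are known to act together in zinc uptake, were not past 2-fold in D1. Slc39a10 had 104 ± 92.8, 59.7 ± 46.1 and 105 ± 272 CPM, and Slc39a6 had 22.6 ± 34.5, 32.2 ± 33.5 and 6.39 ± 29.5 CPM, which was lower in D2 with a ratio of -1.68, and -2.31 without 1 cell. Slc39a4, the zinc importer of the gut, had 78.2, 49.1 and 107 CPM. Slc39a7, which releases zinc from the secretory pathway, shared 84.5% of its exon bases with Gm20427 on the same strand, so its 6.98, 2.72 and 13.5 CPM are uncertain.

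The high-affinity copper importer Slc31a1 had 129 ± 124 CPM in D0 with a median of 111 and a highest cell of 646. It had 34.9 ± 39.8 CPM in D1 and 20.1 ± 86.3 in D2, with ratios of -1.85 and -2.62. Slc11a1, a metal carrier best known from phagosomes, had 86.7 ± 125, 9.63 ± 38.6 and 175 ± 331 CPM. Only 7 D1 cells had a read of Slc11a1, against 63 in D0 and 55 in D2, so it was lower in D1 (-3.04, or -3.86 without 1 cell) and at 2-fold higher in D2 (1.01). The D2 call of Slc11a1 was lost without 1 cell, at 0.86, and the medians over cells, 35.7 CPM in D0 and 2.41 CPM in D2, lay in the opposite order. Slc11a2, the main cellular iron importer beside the transferrin receptor, had 53.7, 27.2 and 36.5 CPM and no ratio past 2-fold. The haem carrier Slc48a1 had 11.2, 21.9 and 11.7 CPM.

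**Figure D4:**
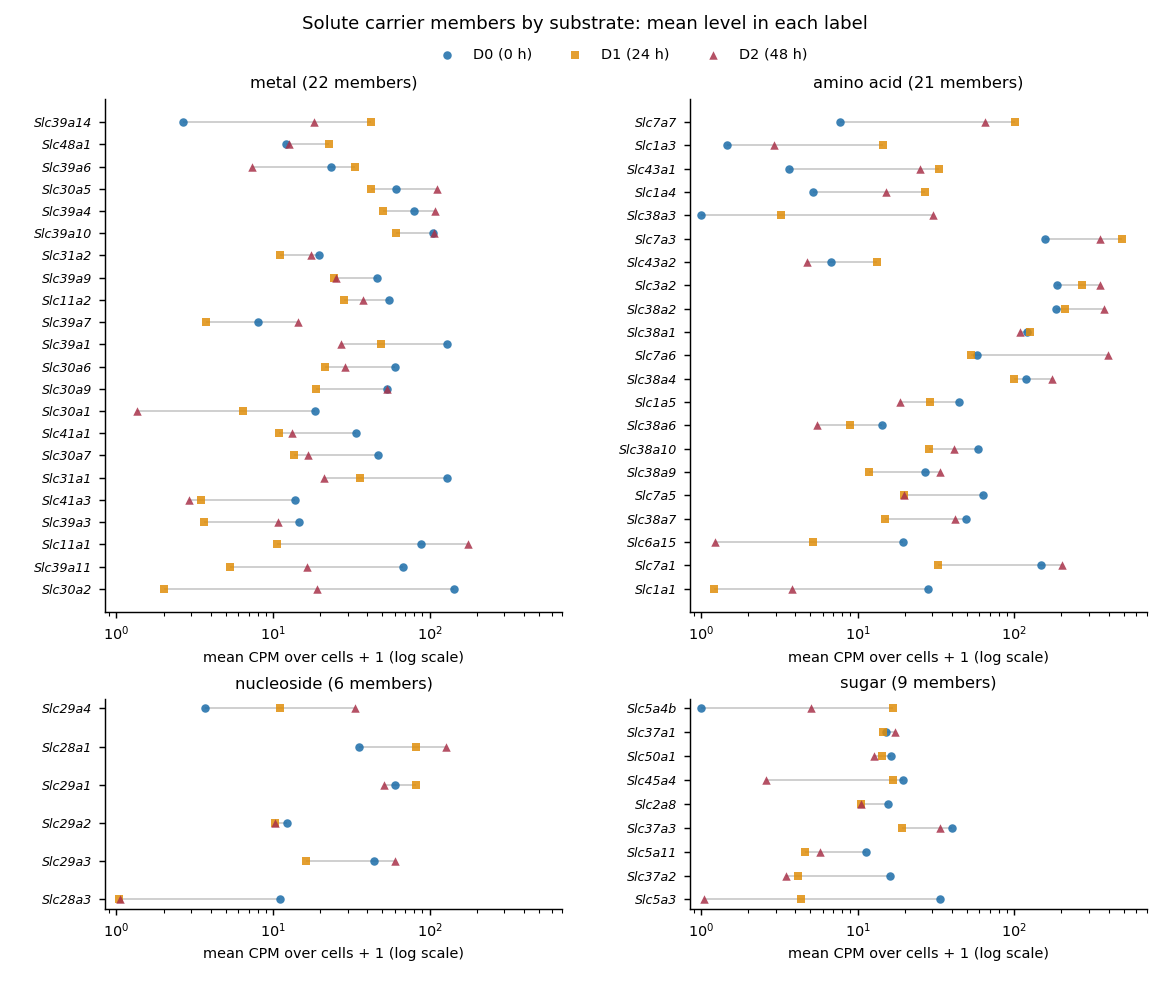
Mean CPM plus 1 over the cells of each label (x, log scale) for the metal, amino acid, nucleoside and sugar members, ordered by the D1 over D0 ratio. In the metal group 19 of 22 D1 points lie to the left of D0, and Slc39a14, at 1.67 CPM in D0 and 40.9 CPM in D1, is the widest of the 3 that do not.

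Amino acid carriers were found on both sides of D0. In D1 over D0, 6 of 21 were higher (28.6%, against 13.1% of all rows) and 7 lower (33.3%, near the 29.3% of all rows), with a median of -0.11. In D2 over D0, 7 were higher (33.3%, against 15.1%) and 5 lower (23.8%, near 28.1%), with a median of 0.45. Of the 7, Slc38a2 and Slc7a6 turned direction with medians over cells. Slc1a4, Slc38a2 and Slc38a3 went under 2-fold without 1 cell. The heavy chain Slc3a2 was among the most widely read members, with 187 ± 127, 269.7 ± 178 and 349.6 ± 404 CPM. Its lowest, median and highest cells were 0, 162 and 735 CPM in D0, 56, 237 and 1183 in D1, and 0, 277 and 2414 in D2. A read was found in 96.7%, 100% and 82.8% of thinned cells, and both ratios, 0.53 and 0.90, were under 2-fold.

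The light chains that pair with Slc3a2 were not alike. Slc7a5, which exchanges large neutral amino acids, was lower under both later labels, with 62.7 ± 62.3, 18.9 ± 24.9 and 18.7 ± 51.9 CPM and ratios of -1.68 and -1.69. Slc7a7, which exports cationic amino acids, was higher, with 6.73 ± 21.9, 100.0 ± 110.0 and 64.3 ± 269.7 CPM. Its medians were 0, 75.4 and 0, and its ratios were 3.71 and 3.08. A read of Slc7a7 was found in 13.3%, 90% and 15.1% of thinned cells, so the D1 level was spread over the cells, while 17 D2 cells had a read and a highest cell of 1844 CPM made up 30.8% of the sum. Slc7a6, of the same function, had 56.5 ± 68.3 and 52.1 ± 60.5 CPM in D0 and D1 and 394 ± 1056 in D2. Its D2 mean held a cell of 9351 CPM, 25.5% of the sum, and the median was 1.96 CPM against 30.4 in D0. Slc7a11, the light chain that takes up cystine, was below the limit with 0.707, 2.22 and 0.719 CPM, and 93.4% of its D1 sum came from 1 cell.

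Over the cells of 1 label, Slc3a2 and Slc7a5 had a Spearman rho of 0.45 in D0 (90 cells) and of 0.37 after thinning. In D1 it was 0.05 (50 cells) and 0.20 after thinning, and in D2 -0.03 (93 cells) and 0.02. The points share their library and depth, and the values are descriptions.

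Both sodium-independent carriers of cationic amino acids in the set, Slc7a1 and Slc7a3, were well read in D0. Slc7a1 had 147 ± 109, 31.4 ± 33.9 and 200.2 ± 481 CPM, with medians of 149, 23 and 0. The ratio was -2.19 in D1 and 0.45 in D2, and in D2 only 37 of 93 cells had a read. Slc7a3 had 156 ± 175, 490.1 ± 382 and 353 ± 443 CPM, with medians of 116, 498 and 199. It was higher under both later labels, with ratios of 1.65 and 1.17 and ranges of 1.58 to 1.76 and 1.10 to 1.29 when any 1 cell was left out. Per kilobase of transcript, Slc7a1 had 20.4 and Slc7a3 56.7 CPM in D0.

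The sodium-coupled neutral carriers of family Slc38 differed from one another. Slc38a1 had 119.6 ± 101, 124 ± 88.1 and 107 ± 265 CPM, with both ratios near 0. Slc38a2, which is known to answer amino acid shortage, had 184 ± 171, 209 ± 130.4 and 374 ± 727 CPM. Its D2 ratio of 1.02 went to 0.83 without 1 cell, and the median over cells was 156 CPM in D0 and 29.3 in D2. Slc38a7 had 48.3, 14 and 40.7 CPM, and its D2 ratio of -0.24 went to -0.82 without 1 cell. Slc38a9, the arginine sensor of the lysosome, had 25.8, 10.9 and 32.7 CPM, and its D2 ratio of 0.33 went to -0.73. For Slc38a3 no read was seen in D0, and 1 of 2 D2 cells held nearly all of its 4618 reads. Against a floor of 3 reads over the label it was at least 1316-fold higher in D2, a value that rests on that cell.

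Carriers of glutamate and of small neutral amino acids held some of the widest ratios of the group. Slc1a1, a glutamate carrier, had 27.2 ± 38, 0.219 ± 1.26 and 2.82 ± 16.7 CPM, with ratios of -4.53 and -2.89, although 32% of its exon bases lie opposite another gene and 80.6% and 50.7% of its D1 and D2 sums came from 1 cell. Slc1a3, another glutamate carrier, had 0.477 ± 2.14, 13.6 ± 24.1 and 1.92 ± 13.5 CPM, with 28 of 50 D1 cells holding a read and 72.2% of the D2 sum in 1 cell. Slc1a4, which carries alanine, serine and cysteine, had 4.22 ± 16.1, 26 ± 87 and 14.3 ± 60.9 CPM, with ratios of 2.37 and 1.55 that went to 1.53 and 0.98 without 1 cell. Slc1a5, the glutamine carrier, had 43.2 ± 38.7, 28 ± 29.7 and 17.7 ± 34.9 CPM, lower in D2 with a ratio of -1.24. Slc43a1, which carries branched-chain amino acids, had 2.65, 31.9 and 23.9 CPM, and Slc6a15 had 18.4, 4.22 and 0.227 CPM.

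The binding element of the stress factor Atf4 was searched as TGATGNAA on both strands. It was found for 3 of 96 members (3.13%), a smaller share than the 4.51% of all genes, again without a CPM limit. Among 15 amino acid members with a sequence, Slc1a4 and Slc7a7 held it, while Slc43a1, also higher in D1, did not. The 30-base windows are shown with the match in capitals, on the strand of the gene.
Slc1a4, chr11:20332699-20332728, - strand: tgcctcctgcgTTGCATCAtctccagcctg
Slc7a7, chr14:54417927-54417956, - strand: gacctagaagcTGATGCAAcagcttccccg

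Atf4 itself had 204 ± 128, 255 ± 229 and 395 ± 328 CPM, under 2-fold in both ratios.

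**Figure D5:**
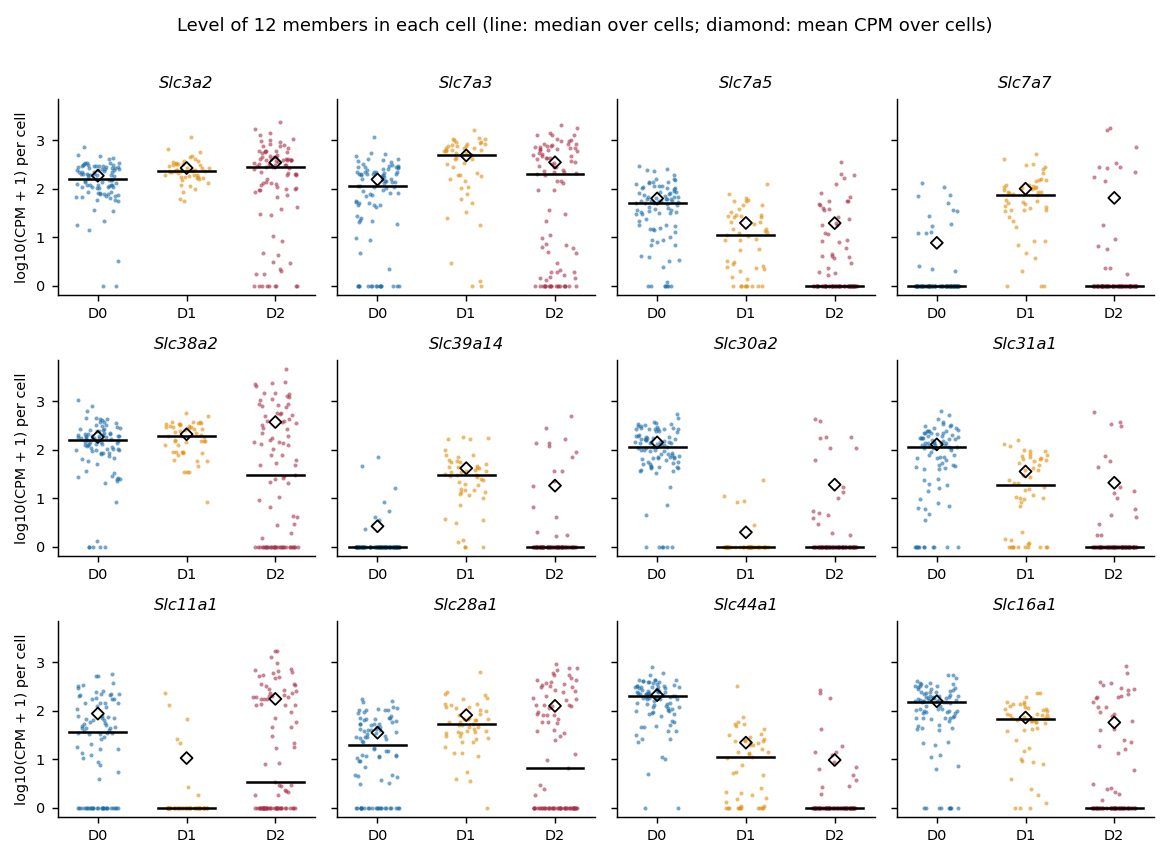
Level of 12 members in every cell, as log10 of CPM plus 1 (y), by label (x). Lines mark medians over cells and diamonds mean CPM. Slc30a2 and Slc44a1 are read in nearly all D0 cells and few D2 cells, Slc7a7 and Slc39a14 are spread over the D1 cells, and in D2 most panels hold many cells at 0 beside a few high ones.

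Of 6 nucleoside carriers, 2 were higher and 2 lower in D1, and 2 higher and 1 lower in D2, where 13.1% and 29.3%, and 15.1% and 28.1%, of all rows were. Slc28a1, which takes up pyrimidine nucleosides with sodium, had 34.4 ± 40.8, 80.5 ± 100.1 and 126 ± 206 CPM. The ratios were 1.20 and 1.84, and a read was found in 64.4%, 94% and 50.5% of thinned cells. Medians over cells were 18.9, 51.3 and 5.51 CPM, so that D2 lay below D0 by that measure. Without 1 cell the D1 ratio was 0.99. Slc28a3, of broader selectivity, had 10.0 ± 25.2, 0.0361 ± 0.193 and 0.0618 ± 0.386 CPM, with 24, 3 and 3 cells holding a read. The equilibrative carrier Slc29a1 had 58.9 ± 60.7, 81.4 ± 93.1 and 50.1 ± 112 CPM, and Slc29a2 had 11.3, 9.24 and 9.32 CPM, neither past 2-fold, although Slc29a2 went to -1.04 in D2 without 1 cell. The lysosomal Slc29a3 had 43.4, 15.2 and 59.4 CPM, and its D2 ratio of 0.44 went to -0.88 without 1 cell. Slc29a4 had 2.67, 10.1 and 32.3 CPM, with 65% of its D2 sum in 1 cell. Adenosine kinase (Adk), which acts on nucleosides once inside, had 23.4 ± 28.3, 64.5 ± 48 and 144 ± 247 CPM.

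None of the 9 sugar members reached 40 CPM in any label. Against D0, 4 of 9 were lower in D1 (44.4%, against 29.3% of all rows) and 1 higher (11.1%, near 13.1%). In D2 over D0, 3 were lower (33.3%) and 1 higher (11.1%), near the 28.1% and 15.1% of all rows. Slc5a3, which takes up myo-inositol, had 32.7 ± 77.1, 3.33 ± 7.01 and 0.0524 ± 0.505 CPM, with a read in 31, 18 and 1 cells. Its ratios of -2.96 and -5.0 were the lowest of the group in both comparisons. Slc5a4b, of the sodium-glucose family, had a read in 0 of 90 D0 cells, which allows a share of up to 3.33% of cells with a read (3 counts of the total), and 15.8 ± 28 CPM in D1, where 25 cells had a read. It was at least 927-fold higher in D1 against a floor of 3 reads over the D0 cells. Slc45a4 had 18.4, 15.8 and 1.61 CPM, and Slc37a2 had 15.2, 3.18 and 2.48 CPM, with 56.4% of its D0 sum in 1 cell, without which its D1 ratio was -0.88. Slc37a1, Slc2a8 and Slc50a1 stayed within 2-fold.

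Of the glucose carriers left out by name, Slc2a1 had 159, 341 and 616 CPM, and Slc2a3 had 912, 159.6 and 374 CPM. The lactate exporter Slc16a3 had 20.7, 73.1 and 209 CPM. Its relative Slc16a1, the monocarboxylate member, lay the other way, with 157 ± 128 CPM in D0, 71.9 ± 58.8 in D1 and 56.6 ± 135 in D2 and ratios of -1.11 and -1.45. Medians of Slc16a1 were 154, 66.8 and 0 CPM. Both depend on a surface partner, Bsg or Emb. Bsg had 274 ± 117, 397 ± 184 and 442 ± 316 CPM, and Emb had 7.38 ± 8.09, 256 ± 224 and 58.5 ± 136 CPM, with a D1 ratio of 4.94.

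Of 18 carriers of vitamins, cofactors and lipids, 5 were higher (27.8%, against 13.1% of all rows) and 8 lower (44.4%, against 29.3%) in D1. In D2, 5 were higher (27.8%, against 15.1%) and 6 lower (33.3%, near 28.1%). Slc44a1, a choline carrier, had 209.7 ± 147 CPM in D0, where all but 2 of 90 cells had a read. It had 21.1 ± 47.7 CPM in D1 and 8.69 ± 41 in D2, with medians of 197, 9.97 and 0 and ratios of -3.25 and -4.44. Slc5a6, which takes up biotin and pantothenate, had 80.6 ± 84, 12.2 ± 22.5 and 12.1 ± 52.4 CPM. The riboflavin carrier Slc52a3 had 48.5, 3.06 and 9.10 CPM, and the vitamin C carrier Slc23a2 had 95.5, 18.1 and 53.1 CPM. Of these D2 sums, 56% and 47.8% came from 1 cell, without which the D2 ratios went from -2.29 to -3.29 for Slc52a3 and from -0.84 to -1.73 for Slc23a2.

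In the same group, Slc27a2, which takes up and activates fatty acids, was higher, with 4.35 ± 17, 32.2 ± 52.7 and 132 ± 424 CPM. Its ratios were 2.63 and 4.64, and reads came from 11, 35 and 28 cells, so more cells had it in D1 but the high values were in D2. The folate carrier Slc19a1 had 10.7 ± 24, 30.4 ± 31.9 and 34.7 ± 141 CPM, with a read in 21.1%, 66% and 11.8% of thinned cells. The thiamine carrier Slc19a2 had 86.2, 56.2 and 160.5 CPM, with a D2 cell of 6543 CPM that made up 43.8% of the sum. Slc44a4 had 4.78, 18.8 and 22.2 CPM, with 43.4% of the D2 sum in 1 cell. Slc23a1 had 0.257, 2.00 and 10.7 CPM, and 90.7% of the D2 sum came from 1 cell.

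Ion and pH carriers were lower in 11 of 21 cases in D1 (52.4%, against 29.3% of all rows) and in 9 of 21 in D2 (42.9%, against 28.1%). In D1 1 was higher and in D2 0 were, against 13.1% and 15.1% of all rows. Slc12a2, the sodium, potassium and chloride cotransporter, had 27.3 ± 40.3, 13 ± 15.3 and 0.357 ± 2.40 CPM, with a D2 ratio of -4.38 and a read in 5 D2 cells. Slc12a7, which carries potassium and chloride outward, had 139 ± 139, 34.6 ± 84.5 and 12.4 ± 60 CPM, with ratios of -1.98 and -3.39 and 33.6% and 45.6% of the D1 and D2 sums in 1 cell. The bicarbonate carrier Slc4a5 was the higher one in D1, with 37.9 ± 51.9 and 82.9 ± 71.1 CPM and a ratio of 1.11, which went under 2-fold without 1 cell. Slc20a1, a phosphate carrier, had 102, 113 and 56.9 CPM.

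The sodium pump sets the gradient that many members use. Its beta subunit Atp1b1 had 170.4 ± 103, 57.5 ± 47.2 and 22.2 ± 76.7 CPM, and Atp1b3 had 178 ± 117, 110.2 ± 83.5 and 604 ± 945 CPM. The D2 ratio to D0 was -2.89 for Atp1b1 and 1.76 for Atp1b3. By the median over cells Atp1b3 lay lower in D2, at 132 CPM against 160 CPM in D0. A read of it was found in 95.6% of thinned D0 cells and 73.1% of thinned D2 cells. Over all 22 partner genes with a row, 3 were higher and 4 lower in D1 over D0, and 6 were higher and 6 lower in D2 over D0, where 13.1% and 29.3%, and 15.1% and 28.1%, of all rows were.

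Nucleotide sugar carriers of family Slc35 supply glycan synthesis in the Golgi and endoplasmic reticulum. In D1 over D0 1 of 11 was higher (9.09%) and 2 lower (18.2%), below the 13.1% and 29.3% of all rows. In D2 over D0 2 were higher (18.2%, near 15.1%) and 1 lower (9.09%, against 28.1%), with a median of 0.52. Slc35b1, which exchanges ATP and ADP across the endoplasmic reticulum, was among the most steadily read members, with 77.3 ± 62.1, 166 ± 90.6 and 257 ± 322 CPM and medians of 63.3, 152 and 222. Its ratios were 1.09 and 1.72, and a read was found in 88.9%, 98% and 71% of thinned cells. Slc35b4 had 19.2, 18.9 and 67.2 CPM, with medians of 7.35, 12.6 and 0, so D2 lay below D0 by the median. Slc35a5 had 22.4, 3.44 and 1.58 CPM, with 78.2% of its D2 sum in 1 cell. Slc35b2, which loads sulphate donors into the Golgi, had 73.3 ± 62.9, 71.9 ± 52.1 and 135 ± 172 CPM.

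The remaining carriers include some of the widest ratios, named here after their values were seen. Slc6a6, the taurine carrier, had 325 ± 188 CPM in D0, with a read in 89 of 90 cells. It had 95 ± 65.6 CPM in D1 and 58.4 ± 137 in D2, with medians of 304, 96 and 0. Slc16a9 had 39.9 ± 51, 0.920 ± 3.85 and 0.0441 ± 0.425 CPM, with ratios of -4.41 and -5.29, and 24.2% of its exon bases lie opposite other genes. The peptide carrier Slc15a1 had 13.5 ± 22.2 CPM in D0 and no read in D1, at least 2472-fold lower against a floor of 3 reads. Slc47a1, which exports organic cations, had 1.57 ± 8.90, 8.77 ± 19.1 and 51.9 ± 155 CPM, with a read in 6, 19 and 27 cells. The adaptor Slc9a3r1, which is no transporter, had 29.3, 83.5 and 21.3 CPM.

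Levels of different genes were set side by side per kilobase of the longest annotated transcript, averaged over the labels. Slc7a3 had the highest value, 121 CPM per kilobase, followed by Slc35b1 with 109.5, Slc3a2 with 95.5 and Slc38a2 with 54.8. The order changed with the label: Slc3a2 led in D0 with 66.3 CPM per kilobase, Slc7a3 in D1 with 178 and Slc35b1 in D2 with 169. In D0 the next were Slc7a3 with 56.7, Slc39a1 with 54.1 and Slc6a6 with 52.6, which differed by less than the spread between cells. Within groups the leading member also depended on the label. Among metal carriers Slc39a1 led in D0 and in D1, with 54.1 and 20.1 CPM per kilobase, and Slc11a1 in D2 with 75.7. Among nucleoside carriers Slc29a1 led in D0 and D1, with 26.6 and 36.7, and Slc28a1 in D2 with 43.3. Slc50a1 led the sugar carriers under every label, with 14.9, 13.1 and 11.5 CPM per kilobase.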

How the data were processed

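The authors aligned single-cell reads with HISAT2 to GRCm38 per the submitters' processing notes, and the counting tool and annotation are not given in the sources used here. The deposited table holds whole-number read counts per gene without normalization for 288 wells, although the labels describe a table that had been filtered and normalized. A well passed with over 200000 reads, over 2000 genes read and under 0.15 of reads from mt- genes, and 233 wells did. Cells were sorted 1 per well, and no doublet caller was run.

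Counts were scaled to CPM by the total of each cell, and means weight cells equally. Depth was 202157 to 43336922 reads per cell. Reads carry no molecular identifiers, so floors and shares cover counting error only. With 1 culture per label no test was run. Ratios are log2 of mean CPM with a pseudocount of 1, and the effect of leaving out each cell in turn is given as a range. Shares of cells were computed after thinning to 200000 reads with a fixed seed.

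The members, gene lists and substrate groups, assigned gene by gene, were chosen with earlier results of these data known. Named members are the 2 largest and 2 smallest ratios of each group in D1 and D2 over D0, the highest per kilobase, a fixed list and partner genes. Others are named after their values were seen. Levels per kilobase used the longest basic transcript of GENCODE M21 (GRCm38), which may not be the authors' annotation. Of the members, 15 shared over 10% of their exon bases with other genes. Start sequences are from RefSeq (GRCm38.p6).

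Alternatives were no filter on cells, summed reads, and TMM (edgeR 4.0.16 in R 4.3.3) and median-of-ratios factors, both on summed reads. Others were a pseudocount of 10, thinning, each side of the plate, D1 cells with an Hprt read, medians over cells and other limits. The software was Python 3.11.15, scipy 1.17.1, pandas 2.3.3 and numpy 2.4.6, and the scripts were tested on simulated data. Some items are not reported here.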

Additional observations from a re-analysis of the deposited data

How the results depend on the processing

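No paired analysis was possible because the wells are single cells of 1 culture at each time. The number of members was 132, and lay between 96 and 160 with limits of 20 and 5 CPM, no filter on cells, summed reads or thinning. The median over cells in place of the mean moved most values: the median ratio of the members was then 0 in D1 over D0, -2.45 in D2 over D0, where all rows were at -2.43, and -1.57 in D2 over D1. By that measure 1 member was higher and 79 lower in D2 over D0, and 1 was higher and 73 lower in D2 over D1 (59.8% and 55.3% lower, against 61.4% and 63.4% of all rows). Most members were unread in most D2 cells, so their median there is 0.

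A pseudocount of 10 CPM left 11 higher and 35 lower in D1 over D0 (all rows 8.05% and 18.9%), 28 lower in D2 over D0 (19.9%), and 22 higher and 4 lower in D2 over D1 (12.6% and 9.70%). The 104 members with a mean of 10 CPM over the labels gave 28 lower in D2 over D0 (26.9%, against 26% of all rows) and 10 lower in D2 over D1 (16.8% of all rows), with 15 higher and 44 lower in D1 over D0 (11.7% and 27.6%). TMM factors on summed reads moved the D2 over D0 median to -0.15 and that of all rows to 0.10. Summed reads alone gave -0.42 and -0.17. Plate columns 1 to 6 alone gave medians of -0.65 in D2 over D0 (all rows -0.30) and 0.0071 in D2 over D1 (all rows -0.06), and 34 lower in D2 over D1 (25.8%, against 25.1%). Without the filter on cells the D2 over D1 median was 0.58. With only the D1 cells that had an Hprt read, 21 were higher and 58 lower in D1 over D0, where 13.2% and 30.1% of all rows were.

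Of the 80 members past 2-fold in D1 over D0, 76 did not turn direction under any alternative run. The same held for 61 of 68 in D2 over D0 and 28 of 53 in D2 over D1. Members with the same median in both labels, such as Slc7a7 in D2 over D0, have no direction by medians over cells. They were counted as not turned, so these counts do not show that a direction was kept. Leaving out any 1 cell brought 8, 10 and 21 of the 80, 68 and 53 under 2-fold, and 4 in D2 over D1 changed direction. Among the members named by rule, direction turned for Slc35a3 in D1 over D0 without the filter on cells (1.72), and with medians over cells for Slc12a2 in D1 over D0 (0.85) and for Slc11a1 (-3.43), Slc35b4 (-3.06), Slc28a1 (-1.61) and Slc38a2 (-2.37) in D2 over D0. Others that turned were Slc10a3 and Slc30a6 in D1 over D0, Slc18a1, Slc7a6 and Slc35f2 in D2 over D0, and 25 members in D2 over D1. Beyond the medians, the cause was not tested.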
